A study of Mus musculus with 56 samples.

Results

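The comparison described here set total RNA from the gastrocnemius, the large calf muscle, of 7 female mice labelled HuR knockout against that of 7 female controls. These 14 libraries, 1 per mouse, were chosen by the sex, RNA type and genotype in the column names and are 14 of the 56 libraries of the series. All mice, controls included, carried Cre recombinase driven by the Mlc1f promoter, which is active in skeletal muscle fibres, and a GFP-tagged L10A ribosomal protein switched on by that Cre. The labelled knockouts also carried floxed Elavl1, the gene of HuR, so the design removes HuR from Cre-expressing fibres while other cells of the muscle keep the gene. Animals were 20 to 22 weeks old; neither a strain nor any treatment is named in the labels. RNA was extracted from whole homogenates with Trizol, so every cell type of the muscle contributed. Libraries came from a 3′ end kit, which reads a short tag near the end of each mRNA.

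HuR is an RNA-binding protein of the ELAV family that attaches to uridine-rich and AU-rich stretches, mostly in 3′ untranslated regions (3′ UTRs). Binding by HuR is known to slow the decay of many mRNAs and to change the translation of others, and other AU-binding proteins such as tristetraprolin promote decay through the same kind of site. In skeletal muscle HuR has been linked to myogenic differentiation and to the choice of fuel for oxidation.

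The level of Elavl1 itself (identifier ENSMUSG00000040028) did not separate the groups. In CPM (counts per 1000000 counts of a library) it was 65.8 at the lowest, 82.9 at the median and 114 at the highest in controls, and 71.9, 90.2 and 95.4 in labelled knockouts. The ranges overlap entirely, and the log2 change was −0.01 ± 0.13 (SE, adjusted p = 0.969, edgeR's quasi-likelihood test, as for every adjusted p below). The labels do not give the deleted exons. A tag at the 3′ end may lie outside the deleted part, and non-fibre cells keep the gene, so this level does not check the labels. The paralogs Elavl2, Elavl3 and Elavl4 had 113, 68 and 73 counts over the 14 libraries and were too low to test.

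Depth was 2.82 to 5.16 M counts (M is 1000000) in genes per control library and 2.63 to 3.96 M per labelled knockout. Muscle fibre markers were abundant in every library, with a summed 74955 to 118894 CPM. Several libraries stood apart. Control 14 and knockout 9 had 19.3% and 21.6% of counted reads outside genes. Control 14 also had the highest sum of fibre markers and the lowest sum of fibroblast markers (2424 CPM). Control 21 was far above the other controls in 7 of the genes named below. On the second principal component of the 1000 most variable genes, which held 23.4% of the variance, knockouts 5, 6 and 12 lay at 7.51 or higher and knockouts 1, 2, 9 and 10 at −16.2 to −6.82, with the controls between them at −1.14 to 4.06. Some of the results that move with these libraries are given with and without them.

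**Figure D1:**
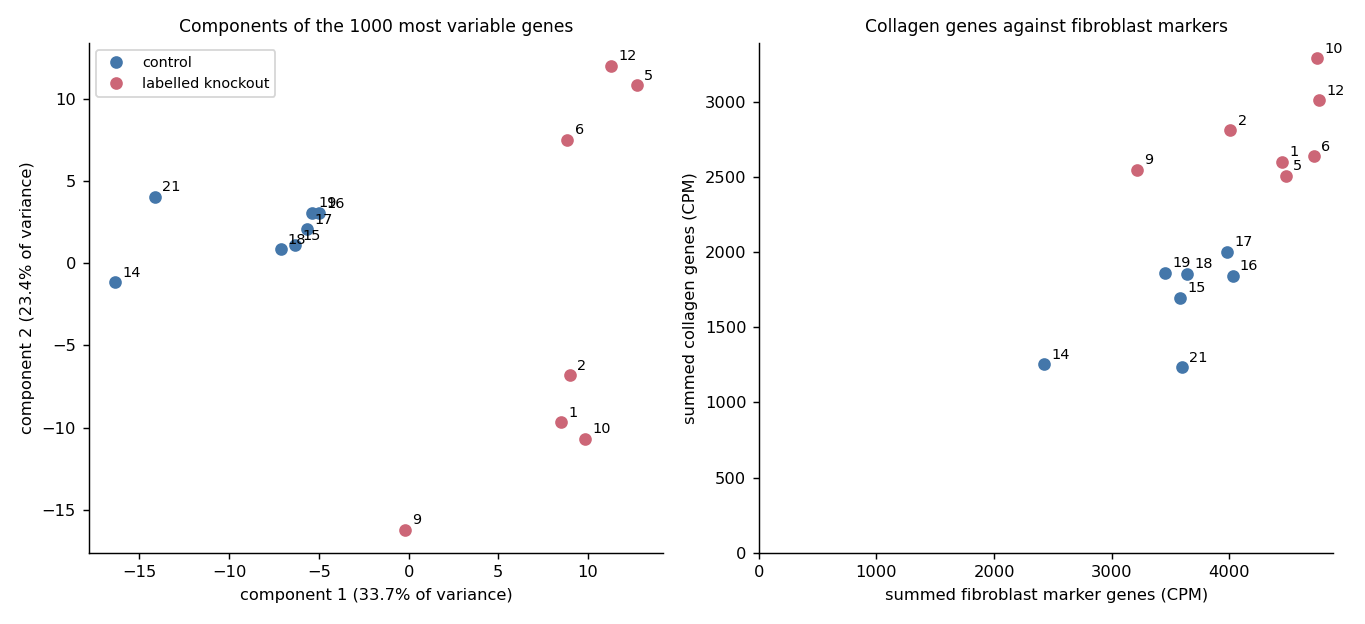
Left, the 14 female total libraries on the first 2 principal components of log2 CPM of the 1000 most variable genes; right, the summed CPM of fibroblast marker genes (x axis) and of collagen genes (y axis) in the same libraries, numbered as in the labels. Labelled knockouts lie apart from controls on component 1 and split in 2 on component 2, and the summed collagen level is 1234 to 2000 CPM in controls and 2508 to 3289 CPM in labelled knockouts. Both sums hold Col15a1.

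Labelled knockouts differed from controls in 1092 of 12860 tested genes, which is 8.49%. Of these 488 were higher (3.79%) and 604 lower (4.7%). Most changes were modest. The median log2 change was 0.57 among the higher genes and −0.45 among the lower ones, and 61 and 53 genes changed more than 2-fold, while the median over all tested genes was 0.01. The lower genes were the more abundant, with a median control level of 71.3 CPM against 20.8 CPM for the higher genes. Together the lower genes went from 83540 to 60474 CPM and the higher ones from 21641 to 31480 CPM. In 333 tested genes (2.59%) the 7 labelled knockouts did not overlap the 7 controls, 130 of them above (1.01%) and 203 below (1.58%). Of the 1092 calls, 581 were kept in each of the 14 fits that left out 1 female library.

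Among the falls of lowest p were genes of steroid and sphingolipid signalling, insulin action and lipid breakdown. Fkbp5, a co-chaperone of Hsp90 and a classic glucocorticoid receptor target, was at 58.4, 69.5 and 119 CPM in controls (lowest, median and highest) and at 17.1, 21.8 and 25.95 CPM in labelled knockouts. The groups do not overlap, and the log2 change was −1.76 ± 0.17 (adjusted p = 9.18e-08). Htra4, a secreted serine protease, had the largest fall of the 15 lowest-p falls, from 13.2, 25.02 and 32.9 CPM to 3.09, 5.25 and 6.10 CPM (−2.35 ± 0.24, adjusted p = 1.75e-07), again with no overlap. Tbc1d4, the Rab GTPase-activating protein that holds back GLUT4 transport until insulin acts, fell from 119, 146 and 170 CPM to 64.7, 75.9 and 79.4 CPM (−0.97 ± 0.12). Spns2, the exporter of sphingosine 1-phosphate, fell from 40.6, 52.1 and 88.3 CPM to 18.6, 20.2 and 28.3 CPM (−1.32 ± 0.17). Each labelled knockout was below each control for both genes.

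Pnpla2, adipose triglyceride lipase, which removes the first fatty acid from stored triglyceride, was at 97.5, 141 and 241 CPM in controls. In labelled knockouts its level lay in a narrow band of 75.6 to 79.9 CPM (median 78.0), and the log2 change was −0.95 ± 0.13 (adjusted p = 1.98e-05). Nceh1, a hydrolase of cholesterol esters, fell from 53.9, 59.7 and 69.0 CPM to 30.3, 32.5 and 34.9 CPM (−0.92 ± 0.11), with a gap between the groups. The lysophospholipid hydrolases Pnpla7 and Gdpd1 fell by 0.83 and 0.90 on the log2 scale. The other falls of this set were the scaffold protein Tanc1 (−1.17), the small GTPase Rhou (−1.16), the PI3-kinase inhibitor Pik3ip1 (−0.91), the nucleotidase-domain gene Nt5dc3 (−0.83), Tmem47 (−0.73), the splicing factor Rbfox1 (−0.72) and Nudcd3 (−0.56). In all 15 genes every labelled knockout lay below every control, as in 1.58% of all tested genes. The 15 were picked for low p in these same libraries, which favours such separation, so it is no added evidence. Control 21 was the highest control for Fkbp5, Spns2, Rhou, Pik3ip1 and Pnpla7; without it the 5 changes were −1.60, −1.16, −1.03, −0.81 and −0.72, and all 5 stayed called.

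**Figure D2:**
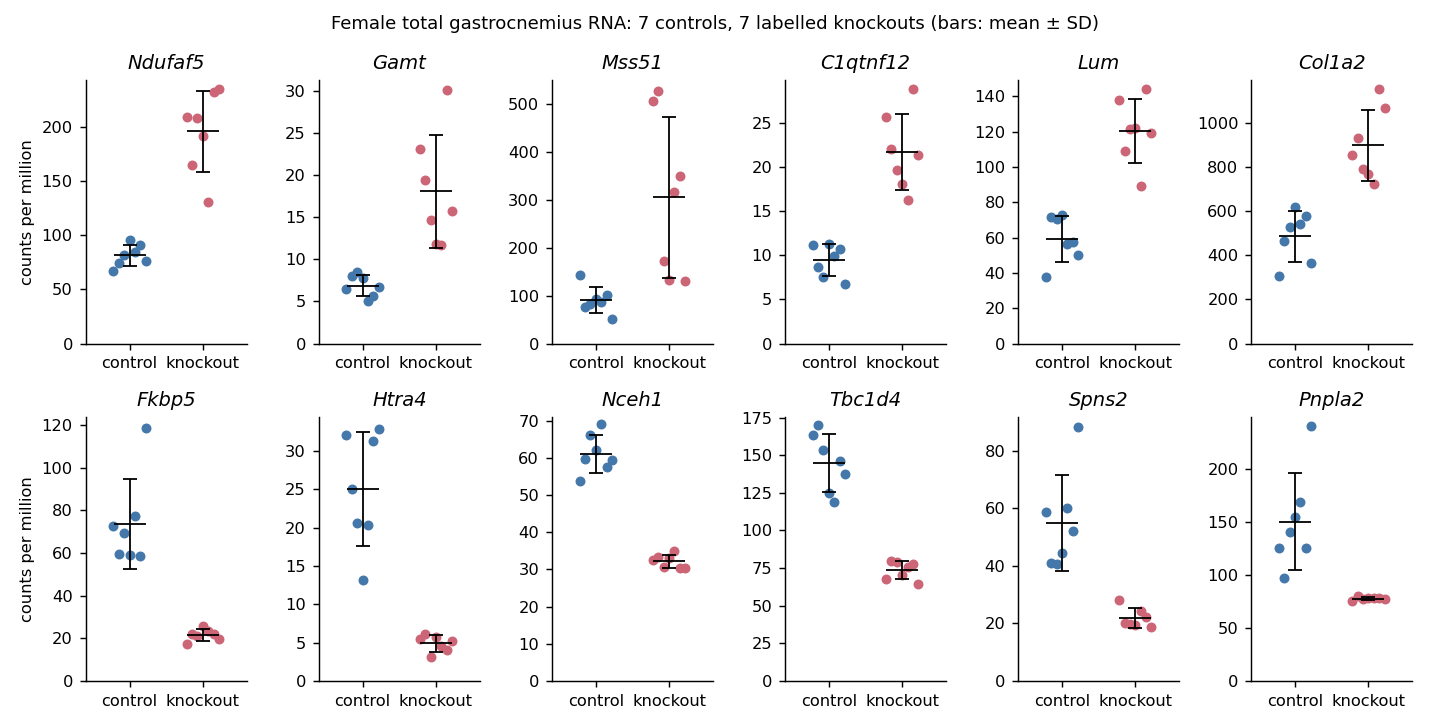
CPM (y axis, starting at 0) in each female total library for 12 of the genes of lowest p, with controls in blue and labelled knockouts in red; black bars are the mean ± SD of 7 mice. In 11 of the 12 genes, picked for low p in these same libraries, the groups do not overlap. In Mss51 2 labelled knockouts fall within the range of the controls.

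The rises of lowest p were led by a gene of mitochondrial complex I assembly and by genes of the extracellular matrix. Ndufaf5, which modifies a complex I subunit during assembly, rose from 67.0, 82.2 and 95.8 CPM to 131, 208 and 235 CPM, with no overlap (1.26 ± 0.12, adjusted p = 1.24e-07). C1qtnf12, the secreted protein adipolin, rose from 6.73, 9.93 and 11.3 CPM to 16.3, 21.4 and 28.8 CPM (1.18 ± 0.15). Gamt, the methyltransferase of the last step of creatine synthesis, rose from 5.08, 6.73 and 8.52 CPM to 11.7, 15.8 and 30.1 CPM (1.41 ± 0.20). Both are low genes, and in both each labelled knockout was above each control. Mss51, a skeletal muscle gene of mitochondrial metabolism, had the largest log2 change of the 15 lowest-p rises (1.75 ± 0.28, adjusted p = 0.000138), from 51.2, 86.1 and 142 CPM to 131, 317 and 527 CPM. It was also the most uneven among the labelled knockouts: knockouts 5, 6 and 12 had 172, 133 and 131 CPM and the other 4 had 317 to 527 CPM. Without knockouts 5, 6 and 12 its log2 change was 2.22.

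Of the other 11 rises of this set, 7 are matrix genes or secreted proteins. They were the keratan sulphate proteoglycan lumican (Lum, 1.01), the type I collagen chains Col1a2 (0.88) and Col1a1 (0.97), the type VI chain Col6a3 (0.65), fibrillin 1 (Fbn1, 0.72), spondin 2 (Spon2, 1.25) and galectin 1 (Lgals1, 0.51). The remaining 4 were Vwa3b (1.64), Nrep (1.12), Serf1 (0.96) and Pole4, a subunit of DNA polymerase epsilon (0.47). Groups overlapped in Nrep, where 1 labelled knockout lay within the control range, and in Mss51, where 2 did.

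By absolute shift in CPM the falls were headed by Fbxo32, the ubiquitin ligase atrogin 1, whose controls ran from 545 to 2975 CPM with a median of 685 and whose labelled knockouts ran from 347 to 571 with a median of 517. The 2975 CPM belong to control 21, and without it the log2 change went from −1.11 (adjusted p = 0.00826) to −0.58 (adjusted p = 0.0383). The difference of the means likewise went from −566 to −246 CPM, and Fbxo32 from rank 1 to rank 9 among the called falls, with Cmya5 first. Among the next were Cmya5, a large muscle scaffold (−0.46), the transcription factor Maf (−0.62), the ER-phagy receptor Retreg1 (−0.89; −0.70 without control 21), Lpl (−0.47), Tacc2 (−0.94) and Lpin1 (−0.79). The rises were headed by Col1a2, the beta-globin chain Hbb-bs (0.76), the desaturase Scd1 (1.02), Mss51, Hbb-bt (0.93), Col1a1, beta-actin (Actb, 0.33) and the collagen chaperone Sparc (0.42). Hbb-bs and Hbb-bt are near-identical copies whose reads the counting may split. Actb and Sparc lost the call in 6 and 8 of the 14 fits that left out 1 library, with adjusted p up to 0.0777 and 0.0965.

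Genes that bring fatty acids into the muscle cell and its mitochondria were lower in labelled knockouts. Of 16 tested genes of uptake, activation and carnitine entry 7 fell and 0 rose, with a list median of −0.38. Cd36, the fatty acid transporter of the plasma membrane, was at 599, 686 and 839 CPM in controls and 413, 463 and 535 CPM in labelled knockouts, without overlap (−0.57 ± 0.08, adjusted p = 5.52e-05). Lpl, which frees fatty acids from lipoproteins, fell from 1248, 1508 and 1692 CPM to 863, 1093 and 1194 CPM (−0.47). The acyl-CoA synthetase Acsl1 (−0.53), the transporter Slc27a1 (−0.85) and the carnitine-acylcarnitine carrier Slc25a20 (−0.40) fell as well. The last 2 falls were less firm: Cpt2 (−0.40) lost the call without control 19 or knockouts 1, 2 or 10 (adjusted p 0.0518 to 0.0622), and Fabp3 (−0.37) without controls 18 or 21 or knockout 10 (adjusted p 0.0565 to 0.0664). Summed over the list, all 7 labelled knockouts (3195 to 3652 CPM) lay below all 7 controls (3829 to 5104 CPM).

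The mitochondrial beta-oxidation list had the highest share of calls among the metabolic lists of at least 10 genes: 10 of 19 fell and 0 rose, 18 of 19 were below 0, and the median was −0.34. Long-chain acyl-CoA dehydrogenase, Acadl, fell from 390, 462 and 531 CPM to 245, 315 and 344 CPM, without overlap (−0.58 ± 0.09, adjusted p = 0.000111). Both subunits of the trifunctional protein fell, Hadha by 0.47 and Hadhb by 0.41, as did the medium-chain dehydrogenase Acadm (−0.34), the reductase Decr1 (−0.39) and the isomerases Eci1 (−0.39) and Eci2 (−0.53). These 7 kept the call in each of the 14 fits without 1 library. Acad11, Acaa2 and Echs1 lost it in 6, 11 and 10 of them. Without knockouts 5, 6 and 12 the count was 11 and the median −0.45.

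A part of the lipid droplet genes fell. The droplet coat proteins Plin5 (from 46.2, 62.1 and 95.0 CPM to 17.4, 25.6 and 39.2 CPM, −1.21 ± 0.21), Plin4 (−0.63) and Plin3 (−0.52) fell, with Pnpla2 and the droplet-forming protein Fitm2 (−0.44), so 5 of 15 fell, 0 rose, 6 were above 0 and the list median was −0.09. Plin1, the coat protein of adipocyte droplets, was kept in the adipocyte list and rose (0.68). Acot2 and Acot1, thioesterases that release free fatty acid from acyl-CoA in mitochondria and cytosol, had some of the largest falls of any list. Acot2 went from 44.3, 75.4 and 237 CPM to 24.0, 33.4 and 36.8 CPM (−1.80 ± 0.29) and Acot1 from 2.57, 8.19 and 34.4 CPM to 1.12, 2.80 and 3.62 CPM (−2.21 ± 0.41). The pair are near-identical copies whose reads the counting may split, and the other 6 thioesterases tested did not pass. Their highest control was again far above the control median. Without control 21 the changes were −1.49 and −1.71, still called. Among 15 regulators of the PPAR, ERR and PGC-1 group 2 fell: Lpin1, a phosphatidate phosphatase and coactivator (from 685, 698 and 1099 CPM to 387, 482 and 545 CPM, −0.79), and the nuclear receptor Esrra (−0.37). In the breakdown of branched-chain amino acids and ketones 4 of 19 fell, with Acadsb (−0.49) and Ivd (−0.40) called in every fit without 1 library; 2 falls were left without control 14 or 21 or knockout 1 or 5.

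Fatty acid synthesis moved the other way. Of 17 tested genes 6 rose and 2 fell, with a median of 0.54; there were 3 rises without knockout 5 and 9 without control 15. The stearoyl-CoA desaturase Scd1 rose from 134, 264 and 534 CPM to 292, 645 and 767 CPM (1.02 ± 0.20); the lowest knockout was the one that fell within the control range. Scd2 (0.57) and the desaturase Fads1 (0.73) rose. Fatty acid synthase, Fasn, rose from 12.7, 21.7 and 93.0 CPM to 27.8, 70.3 and 157 CPM (1.29 ± 0.34), with overlap, and lost the call without knockout 5 (adjusted p = 0.0501). The 2 falls were malonyl-CoA decarboxylase, Mlycd (−0.83), and Acacb (−0.48), the muscle acetyl-CoA carboxylase, which set the level of the malonyl-CoA that restrains carnitine entry. Acacb lost the call without controls 19 or 21 or knockouts 1 or 10 (adjusted p 0.0504 to 0.0800). Without knockouts 5, 6 and 12 the list had 2 rises and 1 fall, a median of 0.17, and Fasn at 0.67 (adjusted p = 0.26). Summed adipocyte markers were 3395 to 4011 CPM in controls and 4375 to 5923 CPM in labelled knockouts, without overlap, although 1 of 14 markers (Plin1) passed the test. Plin1 lost the call in 6 of the 14 fits without 1 library (adjusted p up to 0.0713), and without knockout 9 there were 4 rises in the list. In ribosome-bound fibre RNA of controls the summed adipocyte markers had a median of 3942 CPM, against 3836 CPM in total RNA. Fibroblast markers had medians of 529 and 3598 CPM in the same order. The ribosome-bound sums hold 14 adipocyte and 16 fibroblast markers, and the total sums 15 and 18. Which cells carry the adipocyte sum, and the part of adipocytes in the rise of the synthesis genes, were not tested. In bulk RNA, more or fewer cells of a type and more or less RNA per cell cannot be told apart. Of 19 genes of cholesterol synthesis 3 rose, among them Hmgcs1 (0.39) and Msmo1 (0.43), and 1 fell (Fdft1, −0.49), which lost the call in 4 of the 14 fits without 1 library; 5 rose without knockout 9.

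No nuclear gene for a subunit of respiratory complexes I or III to V passed the test with edgeR. Of 37 nuclear genes for complex I subunits and 37 for complexes III to V, 0 were called in either direction, with medians of 0.09 and 0.03; 3 and 2 had an unadjusted p under 0.05, DESeq2 called 0 and 1, and limma-voom 1 and 1. Among 14 complex I assembly factors Ndufaf5 was the one that passed, and the other 13 did not. In the citric acid cycle 1 of 19 fell (Ogdh, −0.35), and this call was lost in 9 of the 14 fits without 1 library. The 8 tested mRNAs encoded in mitochondrial DNA had a median of 0.20, and 0 passed with edgeR, DESeq2 or limma-voom or at an unadjusted p under 0.05. Their sum varied more among labelled knockouts (24286 to 60007 CPM) than among controls (32927 to 38838 CPM). These counts depend in part on the 3 knockouts that stood apart: without knockout 12 there were 2 falls in complexes III to V, and without knockouts 5, 6 and 12 there were 4 in complex I subunits, 3 in complexes III to V and 2 in the citric acid cycle. Of 33 mitochondrial carriers the one with the largest fall was Slc25a34 (from 8.66, 15.7 and 20.5 CPM to 2.72, 4.47 and 5.04 CPM, −1.80 ± 0.26, adjusted p = 4.02e-05).

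**Figure D3:**
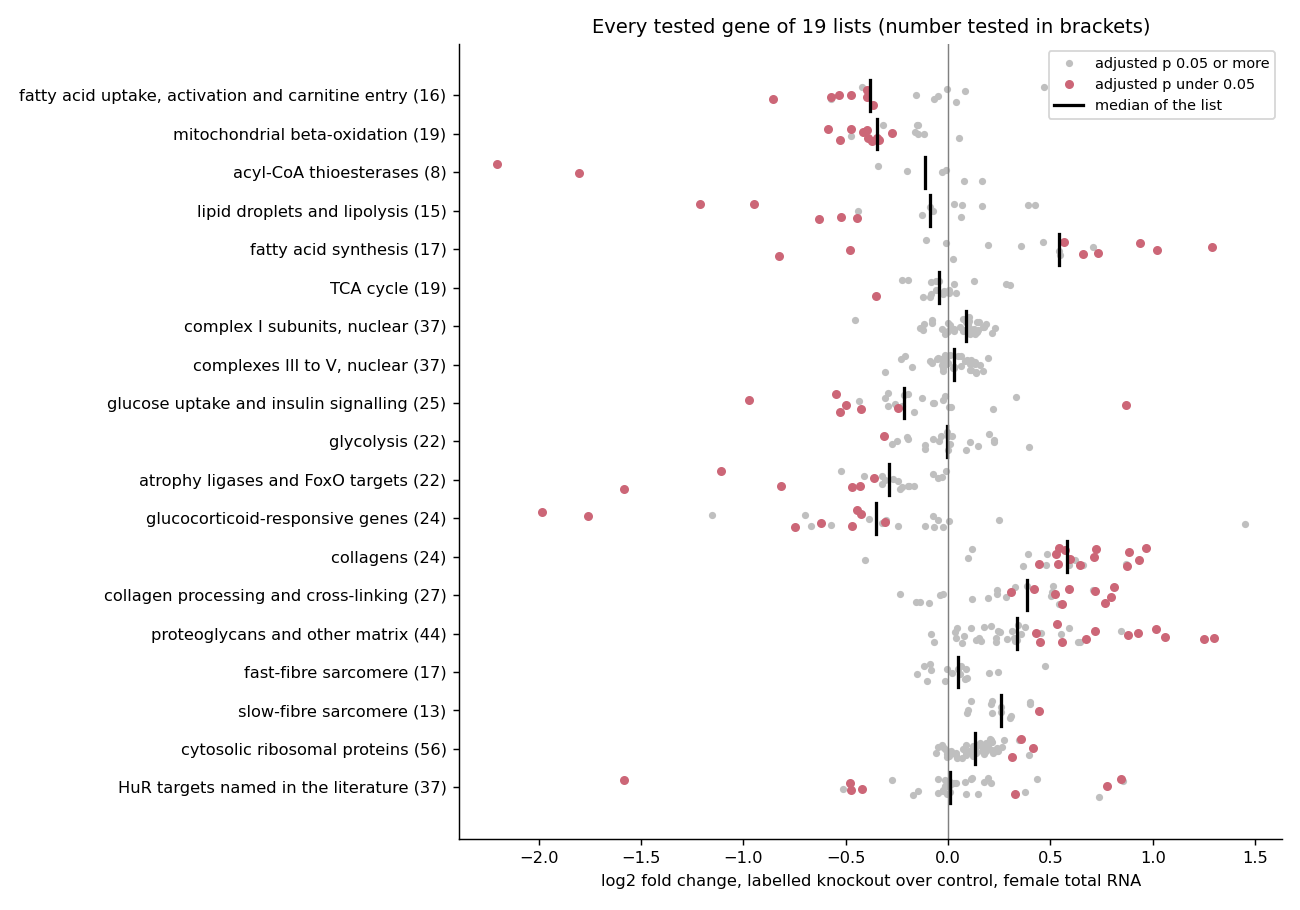
Log2 change of each tested gene (points) in 19 gene lists, with called genes in red and the list median as a black bar; the x axis is the log2 fold change of labelled knockout over control in female total RNA. The medians of the fatty acid uptake (−0.38) and beta-oxidation (−0.34) lists lie to the left of 0 and those of fatty acid synthesis (0.54) and collagens (0.58) to the right, while those of lipid droplets (−0.09) and of complexes III to V (0.03) lie within 0.1 of it.

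In glucose uptake and insulin signalling 6 of 25 genes fell and 1 rose, with a median of −0.22. Beside Tbc1d4, the falls included the kinase Gsk3b (−0.50) and the insulin receptor Insr (−0.53). The rise was Grb14, an adaptor that inhibits the insulin receptor, from 19.4, 28.7 and 42.4 CPM to 38.6, 51.7 and 66.2 CPM (0.87 ± 0.18, adjusted p = 0.00271). These 4 kept the call without any 1 library. Slc2a4, the glucose transporter GLUT4, fell by 0.24, and Irs2 by 0.55, but these lost the call in 10 and 8 of the 14 fits without 1 library, with adjusted p up to 0.118 and 0.130. Without control 21 the list had 3 falls. In glycogen metabolism Ppp1r3a, the muscle subunit that targets protein phosphatase 1 to glycogen, fell from 576, 626 and 692 CPM to 337, 445 and 477 CPM (−0.55 ± 0.10), with no overlap. Ppp1r3d rose by 0.46, but it lost that call in 9 of the 14 fits without 1 library, and 15 of 17 genes did not pass. Glycolysis had 1 fall in 22 genes, the lactate transporter Slc16a3 (−0.31), which lost the call in 7 of the 14 fits without 1 library (adjusted p up to 0.126), and a median of 0.00. Among 10 genes listed for creatine and phosphocreatine, Gamt and brain-type creatine kinase Ckb (0.69) rose, the creatine transporter Slc6a8 fell (−0.35) and 6 did not pass. The remaining rise in that list was Mss51, which is not known as a creatine gene.

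Genes that glucocorticoids and FoxO factors switch on in muscle were mostly lower, and several of these calls depended on control 21. Of 24 glucocorticoid-responsive genes 8 fell and 0 rose, with a median of −0.35. Fkbp5, Arrdc2 (from 6.41, 12.8 and 40.0 CPM to 2.80, 3.93 and 8.45 CPM, −1.98 ± 0.33) and the transcription factor Klf9 (from 721, 733 and 983 CPM to 495, 588 and 631 CPM, −0.42 ± 0.09) kept the call without any 1 library. They were the 3 falls left in the list without control 21, at −1.60, −1.66 and −0.35. Of 22 atrophy ligases and FoxO targets 6 fell, 0 rose and all 22 were below 0 (median −0.29; 4 falls without control 21). They included Fbxo32, the translation repressor Eif4ebp1 (−0.81) and the mitophagy receptor Bnip3 (−0.36). Eif4ebp1 and Bnip3 lost the call without knockouts 5, 6 and 12 (adjusted p 0.0577 and 0.0668). Cdkn1a, the cell cycle inhibitor p21, stood at 251, 302 and 503 CPM in controls and 46.1, 83.7 and 265 CPM in labelled knockouts (−1.58 ± 0.28, adjusted p = 0.000354). Of 19 p53 targets 4 fell, Cdkn1a and the nuclease Aen (−1.03) in every fit without 1 library, and Phlda3 and Bbc3 not in every one; 2 fell without controls 18 or 21 or knockouts 5, 6 or 12, and 8 without knockout 9. Without control 14, knockout 9 and the male libraries with over 19% of reads outside genes, 9 of the 19 fell. Of 26 autophagy genes 5 fell (median −0.06), 2 without control 21 and 1 without control 14. Of 15 targets of the amino acid response factor ATF4, 4 fell and 2 rose. The rises, Ddit3 and Slc7a5, lost the call in 7 and 11 of the 14 fits without 1 library and were never both called in one, and without control 21 there were 2 falls. The glutathione-degrading enzyme Chac1 fell from 46.2, 67.2 and 109 CPM to 11.8, 23.8 and 35.5 CPM (−1.58 ± 0.29), with no overlap. These lists share called genes: Klf15 (glucocorticoid and FoxO), Cebpb (glucocorticoid and ATF4), Eif4ebp1 (FoxO and ATF4) and Cdkn1a (FoxO and p53). Their falls are counted in each list, so the lists are not separate evidence.

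Matrix genes were higher in labelled knockouts. Of 24 collagen genes 13 rose and 0 fell, with a median of 0.58. Col1a2 was at 307, 531 and 621 CPM in controls and 723, 854 and 1154 CPM in labelled knockouts, Col1a1 at 126, 219 and 273 against 309, 367 and 542 CPM, and Col3a1 at 104, 203 and 246 against 322, 344 and 420 CPM. None of these 3 fibril-forming chains overlapped between the groups, and their log2 changes were 0.88 ± 0.14, 0.97 ± 0.15 and 0.93 ± 0.17. The type VI chains Col6a1 (0.54), Col6a2 (0.71) and Col6a3 (0.65), the type XIV chain Col14a1 (0.87), the type XV chain Col15a1 (0.57) and Col5a3 (0.45) also rose in every fit without 1 library. Of 27 genes of collagen processing 9 rose and 0 fell. The cross-linking oxidase Loxl2 rose from 10.3, 21.7 and 28.9 CPM to 26.3, 36.7 and 41.0 CPM (0.77), and the lysyl hydroxylase Plod2 by 0.80. Of 44 proteoglycan and other matrix genes 12 rose and 0 fell (median 0.34). Among them tenascin C, Tnc, went from 11.9, 27.9 and 32.4 CPM to 40.4, 48.2 and 67.3 CPM (1.06 ± 0.22) and periostin, Postn, from 8.98, 19.7 and 21.9 CPM to 27.5, 32.1 and 43.2 CPM (0.93 ± 0.25). Without control 21 collagens had 9 rises and collagen processing 7, and without knockouts 5, 6 and 12 they had 9 and 3. Col6a1 and Col15a1 were among the calls lost without those knockouts (adjusted p 0.0534 and 0.0639).

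Markers of the cells that make matrix were higher in the same libraries. The marker lists share genes with the matrix lists above, among them Col15a1 and Lum (fibroblast) and Col11a1, Kera and Chad (tendon). Rises of shared genes are counted in both, so the lists are not separate evidence. Of 16 tested fibroblast and fibro-adipogenic markers 7 rose and 0 fell (median 0.35), among them Cd34 (0.54) and dermatopontin, Dpt (0.55). Their summed level was 2424 to 4031 CPM in controls and 3219 to 4769 CPM in labelled knockouts, so the groups overlap. Of 12 tendon markers 5 rose and all 12 were above 0 (median 0.75). There were 2 rises without control 14 or knockout 10, Tnmd and Kera, and 8 without knockout 9. Tenomodulin, Tnmd, rose from 6.41, 18.3 and 23.9 CPM to 24.0, 33.8 and 65.1 CPM (1.18 ± 0.25), and keratocan, Kera, from 8.66, 18.9 and 26.2 CPM to 25.2, 43.5 and 62.2 CPM (1.30 ± 0.23). The summed tendon level was 241 to 537 CPM against 424 to 839 CPM. None of the listed fibroblast or tendon markers was at 0. What part the number of these cells, or the tendon left on the muscle, has in the matrix rises was not tested.

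Several genes of blood cells were higher. Of 9 erythroid genes 6 rose (median 0.77). The alpha-globin gene Hba-a1 went from 59.3, 72.3 and 91.8 CPM to 91.5, 140 and 182 CPM (0.89 ± 0.15), and the summed erythroid level was 865 to 1249 CPM against 922 to 2394 CPM. Of 16 macrophage markers C1qa (0.60) and Mrc1 (0.56) rose, but these were called in neither the fit without control 21 nor that without knockouts 5, 6 and 12. Of 4 tested neutrophil and monocyte markers 0 passed with edgeR, DESeq2 or limma-voom, and 1 had an unadjusted p under 0.05. Of 16 genes in the lymphocyte list 3 were deep enough to test, and all 3 rose. They were the immunoglobulin chain Ighm (1.19), Cd74 (0.71) and Ptprc (0.75). Ptprc lost the call in 4 of the 14 fits without 1 library (adjusted p up to 0.0709) and without knockouts 5, 6 and 12 (adjusted p = 0.158). Of 18 endothelial markers Flt1, a VEGF receptor, fell (−0.45) and 15 were below 0. Of 11 satellite cell markers Peg3 (−0.70) and M-cadherin, Cdh15 (−0.64), fell. Among 12 Schwann cell, 14 liver, 4 kidney and 2 keratinocyte markers 0 passed with edgeR, DESeq2 or limma-voom, and 1, 2, 0 and 0 had an unadjusted p under 0.05. The liver and kidney lists were still uneven. Of the 14 liver markers 13 were above 0 (median 0.90), and all 4 kidney markers were below 0 (median −1.04). Summed liver markers ran from 101 to 403 CPM in controls and from 157 to 899 CPM in labelled knockouts.

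Few genes of the contractile apparatus passed the test. Of 17 fast-fibre sarcomere genes, 26 genes of excitation-contraction coupling and 15 fibre markers, 0 passed with edgeR, with medians of 0.05, −0.02 and 0.06; 0, 5 and 1 had an unadjusted p under 0.05, and DESeq2 and limma-voom each called 0, 1 and 1. All 13 slow-fibre genes were above 0 (median 0.26), and 1 passed, the tropomyosin Tpm3 (0.45), which lost the call in 7 of the 14 fits without 1 library. Without knockouts 5, 6 and 12 there were 3 rises and the median was 0.49. In the dystrophin complex 4 of 20 fell and 1 rose, a rise that was lost without knockout 10. Dystrobrevin (Dtna, −0.37) and dystroglycan (Dag1, −0.37) fell in every fit without 1 library.

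Genes that the literature names as bound or stabilised by HuR went in both directions. Of 37 tested 3 rose (8.11%) and 4 fell (10.8%), with a median of 0.01. Of all tested genes 3.79% rose and 4.7% fell. The cell cycle gene Ccnd1 rose from 20.2, 31.7 and 42.0 CPM to 35.4, 57.6 and 69.9 CPM (0.84 ± 0.14, adjusted p = 0.000283). The other rises were the synaptic acetylcholinesterase Ache (0.78, adjusted p = 0.0483) and Actb. The falls were Cdkn1a, Lpl, the peroxide-degrading catalase Cat (from 169, 201 and 264 CPM to 145, 156 and 171 CPM, −0.42) and the myogenic factor Myod1 (from 40.1, 49.4 and 64.3 CPM to 31.9, 34.0 and 44.4 CPM, −0.48). Ccnd1, Cdkn1a, Lpl and Cat kept the call without any 1 library. Ache lost it in 9 of the 14 such fits, and Myod1 without control 21 (adjusted p = 0.0616). The literature on HuR in muscle names Ache and Myod1 among the mRNAs it binds, and in these libraries the 2 went in opposite directions.

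All 7 of these 3′ UTRs hold an AU-rich element motif, and 1 match per gene is shown because it is the kind of site HuR attaches to. The sequences are 29 bases of GENCODE transcripts, release M21 of build GRCm38, read 5′ to 3′ on the mRNA strand as DNA, with the longest motif found in capitals. The motifs searched on that strand were the core ATTTA, the longer form TATTTAT, which holds that core, and the longest form TTATTTATT, which holds both. Ache lies on chromosome 5, Actb on 5, Cat on 2, Ccnd1 on 7, Cdkn1a on 17, Lpl on 8 and Myod1 on 7, and the windows start at bases 47, 174, 196, 1269, 95, 2165 and 574 of the UTR in that order.
Ache: tgtatatacacTATTTATttaagggctgg
Actb: ttttgactcaggATTTAaaaactggaacg
Cat: ggcttagcaatcATTTAacagaaacatgg
Ccnd1: ctacagaagagTATTTATgggaaaggctg
Cdkn1a: atttgtgttttaATTTAaacgtctcctgt
Lpl: agctttcaatTTATTTATTagctgtaaat
Myod1: cccttgggctaTATTTATctcccaggcat
Rises and falls are found among both the shorter and the longer motifs: of the 4 genes with TATTTAT, Ache and Ccnd1 rose and Lpl and Myod1 fell. A match is a description of letters and not a measured binding site. The share of all 3′ UTRs with each motif is given next.

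Lower genes had longer and higher genes shorter 3′ UTRs than genes that were not called. A longest annotated 3′ UTR of at least 50 bases was found for 11548 of the 12860 tested genes, 446 of the 488 higher and 551 of the 604 lower. Its median length was 917 bases in the higher genes, 1258 in genes not called and 1824 in the lower genes. The motif ATTTA was in 72.1% of all these UTRs, in 68.4% of the higher and 79.5% of the lower genes, and per kilobase it occurred 1.85, 1.74 and 1.78 times in the same order. TATTTAT was in 31.6%, 23.8% and 36.1%, and TTATTTATT in 8.43%, 4.93% and 9.80%. Per kilobase the order of higher and lower genes was the opposite for these longer motifs: TATTTAT occurred 0.287, 0.281 and 0.251 times and TTATTTATT 0.0654, 0.0729 and 0.0544 times. Among UTRs of 1000 to 2000 bases, where the groups have nearly the same length, TATTTAT was in 24.3% of 107 higher, 25.6% of 160 lower and 33.0% of 2726 genes not called. Lower genes were also the more abundant, and UTR length and level were not separated here.

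**Figure D4:**
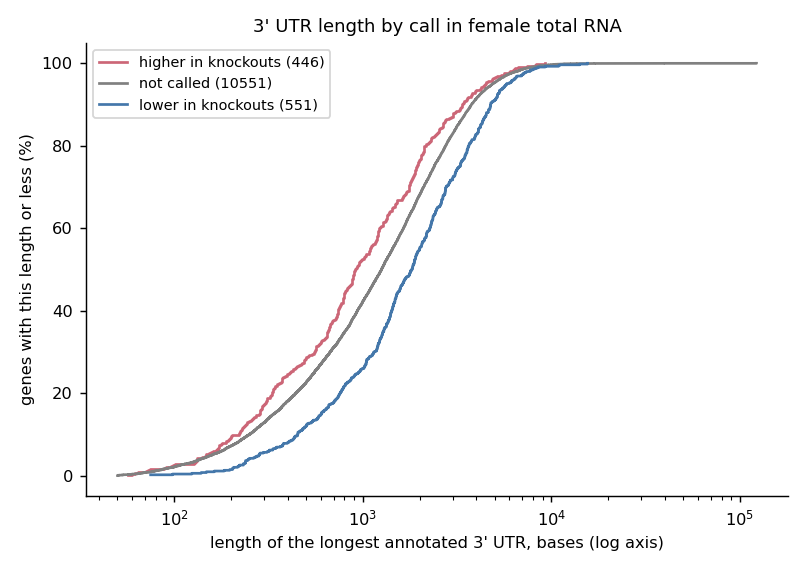
Share of genes (y axis, %) whose longest annotated 3′ UTR has at most the length on the x axis (bases, log axis), for 446 genes higher in labelled knockouts, 551 lower and 10551 not called. The curve of the lower genes lies to the right, with a median of 1824 bases against 917 bases for the higher genes.

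Genes of AU-binding proteins and mRNA decay were called about as often as genes at large, of which 4.7% fell. Of 22 tested AU-binding protein genes 1 fell, Celf2, a splicing and decay factor, from 520, 588 and 760 CPM to 395, 444 and 484 CPM (−0.47 ± 0.09, adjusted p = 0.00164), and 0 rose. Of 44 genes of mRNA decay 3 fell, among them the nonsense-mediated decay factor Upf2 (−0.34), and 0 rose; 1 fell without controls 14, 16 or 21 or knockout 5. Of 43 genes listed for translation initiation and elongation 7 fell and 0 rose. The falls mix translation factors with genes that restrain translation (Eif4ebp1, Eif4ebp2 and Eef2k). Eif4ebp1 is also counted among the FoxO targets. Without control 14 there were 4 falls, and Eef2k, Eif4b and Eif4ebp2 lost the call in 9, 9 and 3 of the 14 fits without 1 library. The falls kept in every fit included the scaffolds Eif4g3 (from 178, 216 and 302 CPM to 97.0, 137 and 177 CPM, −0.63 ± 0.12) and Eif4g1 (−0.38) and the elongation factor Eef2 (−0.32). Of 56 cytosolic ribosomal protein genes 3 rose (Rpsa, 0.42; Rplp0, 0.31; Rpl15, 0.36) and 49 were above 0 (median 0.13); Rpsa was the rise left without knockout 10.

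Total RNA of the male mice, 7 labelled knockouts and 7 controls, shares no animal with the females. In males 1824 genes were called (14.2%), 878 higher (6.83%) and 946 lower (7.36%). Of the female calls 459 were also called in males in the same direction, which is 42.0% of the female and 25.2% of the male calls, and 1 in the opposite direction (Gucy1a1, a subunit of soluble guanylate cyclase). By sign alone, 443 of the 488 rises and 554 of the 604 falls had the same direction in males, against 69.5% of all tested genes, and their median changes were 0.36 and −0.28 there. The male log2 changes of Ndufaf5, C1qtnf12, Gamt and Htra4 were 1.12, 1.14, 1.62 and −1.53, while the male log2 changes of Pnpla2 (−0.27), Nceh1 (−0.22) and Lgals1 (0.14) did not pass the test. Beta-oxidation had 3 falls of 19 in males (median −0.14) and collagens 9 rises and 1 fall (median 0.36).

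A difference in the effect between the sexes was tested as an interaction, and 0 of 12860 genes passed with edgeR (lowest adjusted p 0.126; 1225 genes at an unadjusted p under 0.05). DESeq2 called 8 genes, limma-voom with sample weights 0, and edgeR without a filter on low counts 4. The genes of lowest interaction p were Hspb2, Rasd2, Nceh1, Cd300lg, Ushbp1, Acbd4, Gucy1a1, Selenbp1, Epm2aip1 and Fdft1. The small heat shock protein Hspb2 was at 96.1, 109 and 121 CPM in female controls and 122, 154 and 169 CPM in female labelled knockouts (0.47), with −0.19 in males. The small GTPase Rasd2 fell in females from 80.5, 88.8 and 141 CPM to 17.8, 42.2 and 64.3 CPM (−1.23) and was at 0.02 in males.

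**Figure D5:**
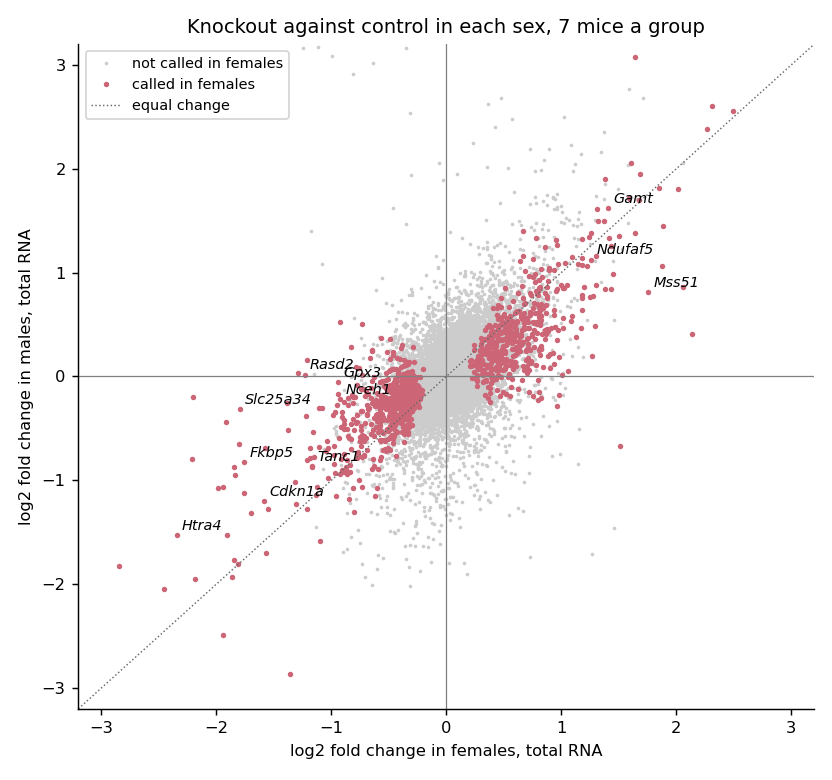
Log2 change of labelled knockout over control in female (x axis) and male (y axis) total RNA for each tested gene, with female calls in red and 11 genes named; 5 genes lie outside the axes of −3.2 to 3.2. Most red points lie to the lower left or upper right of the centre, which holds for 443 of 488 rises and 554 of 604 falls.

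Ribosome-bound RNA of muscle fibres was sequenced in 14 female libraries with the same numbers, taken here as the same mice. Depth was lower, at 0.423 to 3.06 M counts per control and 0.491 to 1.21 M per labelled knockout. The effect of genotype differed between total and ribosomal RNA in 302 of 11810 genes (2.56%), 113 with a total-RNA change above the ribosomal one (0.957%) and 189 below (1.6%). With RLE in place of TMM size factors the split was 70 and 211 of 281. Neither fit pairs libraries by mouse. With the mouse as a block the split was 69 and 174 of 243. Of the 1054 female calls that could be tested this way 36 differed between RNA types, and 972 had the same direction in ribosomal RNA. The share with the same direction among all tested genes is not given here. Both RNA types are taken to come from the same mice, so this count is no independent repeat. The genes of lowest p here were mostly not called in total RNA. The smooth muscle myosin Myh11 changed by −0.22 in total and 2.58 in ribosomal RNA, and the nuclear RNAs Xist and Kcnq1ot1 by −0.23 and −0.30 against 2.74 and 2.80. Others of this set were Fn1, Neat1, Sptan1, Rock1, Abcb1a and Ecm2. The change in total RNA was below that in ribosomal RNA for 6 of 24 collagen genes and 6 of 44 proteoglycan and other matrix genes, and above it for 0. Fbn1 rose by 0.72 against 2.28, Col6a3 by 0.65 against 1.68 and Col1a2 by 0.88 against 1.93. The difference between RNA types did not pass the test for Fkbp5 (−1.76 in total, −2.21 in ribosomal RNA), Htra4 (−2.35, −2.37) and Ndufaf5 (1.26, 0.85), nor for Col1a1, Lum, Sparc and Spon2 (adjusted p 0.126, 0.0642, 0.154 and 0.613).

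Other measures of the female ribosomal libraries moved with genotype as well. Labelled knockouts had 1.52 to 4.77% of counts in mitochondrially encoded genes against 0.319 to 1.30% in controls, and a median of 9.11% against 5.38% of reads outside genes. In female ribosomal RNA 18.5% of genes were called. There 9 of 18 endothelial, 7 of 15 smooth muscle and pericyte, 12 of 16 fibroblast and 4 of 12 Schwann cell markers rose and 0 fell. The list medians were 0.96, 0.83, 1.10 and 1.51. The summed endothelial markers were at 129 to 242 CPM in ribosomal controls and 177 to 632 CPM in labelled knockouts, the smooth muscle markers at 833 to 1097 and 1159 to 1430 CPM, the fibroblast markers at 459 to 651 and 690 to 1920 CPM, and the Schwann cell markers at 32.9 to 53.8 and 42.5 to 229 CPM. The groups do not overlap for smooth muscle and fibroblast markers and overlap for the other pair. The part of RNA from these cells in the differences between RNA types was not tested.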

How the data were processed

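The deposited table holds raw counts, one whole number per gene and library, and was used as deposited. These counts rest on UMI-tools, STAR, HTSeq, DESeq2 1.40.1, R 4.3.0 and build GRCm39, which the submitters' processing notes name. Input was 500 ng of RNA into the Lexogen Quant-Seq 3′ kit, with 50 bp forward reads, per the labels. Whether counting used strand is not given in the sources used here. Of 57010 genes 52029 had a symbol in the GENCODE vM21 gene table of GRCm38, covering 97.56% of counts; no genome coordinates are given because the builds differ. The 5 summary lines of HTSeq stayed out of library sizes and tests.

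The test was that of edgeR 4.0.16 (R 4.3.3), with filterByExpr, TMM and the quasi-likelihood F-test in 1 fit of the 28 total libraries in 4 groups (sex by genotype), which share 1 estimate of the spread. Positive values are higher in labelled knockouts. Calls are genes with an adjusted p (Benjamini-Hochberg, over all tested genes) below 0.05. The sex contrast was an interaction in this fit; the RNA type contrast was an interaction in a fit of the 28 female libraries. CPM used TMM library sizes; each log2 change is given with its SE. In the fit of the total libraries each mouse is 1 replicate, so its p-values measure the spread between mice. The RNA type fit holds 28 libraries, taken to come from 14 mice, and leaves the pairing out. Its p-values therefore treat libraries of 1 mouse as independent, and a block on the mouse is given as an alternative. Scripts were tested on simulated data.

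The text names the 15 rises and 15 falls of lowest p and the 8 rises and 8 falls of largest CPM difference among calls with a mean of at least 5 CPM and an ordinary symbol, the ELAV genes, the 10 genes of lowest p of each interaction, and members of 70 gene lists (54 of pathways, 16 of cell markers). The members and lists were chosen with earlier results of these data known, so no list is independent evidence of its direction, and lists are given by counts and medians with no test of their own. 3′ UTRs came from GENCODE vM21 stop codons and transcripts. A few genes that these rules select are not reported here. Alternatives were RLE size factors, no low-count filter, DESeq2 1.42.0, limma-voom 3.58.1 with sample weights, the 14 libraries alone, all 56 libraries, leaving out libraries with over 19% of reads outside genes, leaving out each library in turn, the mouse as a block for the RNA type contrast, and, added after seeing the data, leaving out knockouts 5, 6 and 12.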

Additional observations from a re-analysis of the deposited data

Results flagged for a closer look

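In 15 of 126 tests of a group of 7 mice, 1 library lay so far from the others that its gap exceeded Dixon's critical value for 7 samples; chance flags about 1 in 20 such groups. Control 21 was the high library in 7 of them. It had 118.6 CPM of Fkbp5 (other controls 58.4 to 77.3), 88.3 of Spns2 (40.6 to 60.0), 102 of Rhou (52.0 to 72.5), 177 of Pik3ip1 (113 to 130), 74.8 of Pnpla7 (41.7 to 52.3), 1592 of Retreg1 (719 to 954) and 2975 of Fbxo32 (545 to 1009). Labelled knockouts were below the lowest other control for the first 6 of these genes and overlapped the controls for Fbxo32.

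Control 14 was high in Cmya5 (2757 CPM, others 1689 to 2012) and in the sum of the muscle fibre markers (118894 CPM, others 74955 to 92940), and low in the summed fibroblast markers (2424 CPM, others 3459 to 4031). Knockout 9 was high in Tanc1 (83.3 CPM, others 38.9 to 49.4) and Tacc2 (900.0 CPM, others 319 to 479), and low in Scd1 (292 CPM, others 578 to 767) and in the summed neutrophil and monocyte markers (36.9 CPM, others 54.5 to 67.5). Knockout 6 had the highest sum of kidney markers among labelled knockouts (55.5 CPM, others 8.92 to 28.7), while the controls ran from 7.70 to 96.5 CPM.

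In 13 named genes the effect of the knockout label differed between total and ribosomal RNA of the females by the interaction test. The difference, total minus ribosomal log2 change, was −3.09 for Kcnq1ot1, −2.95 for Xist, −2.78 for Myh11, −2.26 for Sptan1, −2.12 for Ecm2, −1.71 for Fn1, −1.68 for Abcb1a, −1.66 for Neat1, −1.55 for Fbn1, −1.10 for Rock1, −1.03 for Col1a2, −1.02 for Col6a3 and −0.61 for Cmya5. All 13 are below 0, so the total RNA change was the lower one in each. Kcnq1ot1, Xist, Myh11, Sptan1, Ecm2, Fn1, Abcb1a, Neat1 and Rock1 were named for their low p in this same test. That they passed it is therefore no further evidence. Among all 11810 genes tested this way, 113 calls were above 0 and 189 below.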

How the results depend on the processing

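The count of 1092 female calls stayed within 1.5 times under each alternative run: 734 in the fit of all 56 libraries, 881 without a low-count filter, 1102 with RLE size factors, 1133 with the 14 libraries alone, 1238 without knockouts 5, 6 and 12, 1274 without libraries over 19% outside genes, 1290 with DESeq2 and 1440 with limma-voom. It ranged from 762 (without knockout 10) to 1284 (without knockout 9) when 1 female library was left out. Which genes were called changed more than their number. Of the 1092 calls 691 were kept without knockouts 5, 6 and 12, and 895 without libraries over 19% outside genes. The fit of all 56 libraries kept 670 of them and DESeq2 1073. Knockouts 5, 6 and 12 were picked on values of these same libraries, so the fit without them is a description. Of 42 genes named for lowest p or largest CPM difference, 38 were called under all 22 alternatives; the exceptions were Actb, Hbb-bs, Lpl and Sparc. Elavl1 changed sign with limma-voom (0.018), without knockouts 5, 6 and 12 (0.031) and without libraries over 19% outside genes (0.036), and lay between −0.057 and 0.067 when 1 library was left out, never called.

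The sex interaction gave 0 calls, 8 with DESeq2 and 4 without the filter, and 0 in each fit without 1 library. The RNA type contrast gave 302 calls, 488 with DESeq2, 555 without the filter and 281 with RLE, and 113 (without ribosomal control 15) to 524 (without total knockout 9) when 1 library was left out. The cause of these shifts was not tested.

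For the RNA type contrast, total and ribosomal libraries share numbers in the labels, and those of 1 number were taken as the same mouse. With the replicate block on the mouse 243 genes were called, 199 of them among the 302. Same-numbered libraries deviated from their group means with a mean correlation of 0.0323 in controls and 0.199 in labelled knockouts. No paired analysis was possible because the controls and labelled knockouts of the female total comparison are different mice that share no number. Depth limits low genes most: Elavl2, Elavl3 and Elavl4 could not be tested.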

Other observations

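Some groups outside the comparisons above also held called genes. Single genes of iron handling and the acute phase were lower. Ferroportin, Slc40a1, the iron exporter, was at 44.0, 58.3 and 90.9 CPM in controls (lowest, median and highest) and 18.3, 27.1 and 41.6 CPM in labelled knockouts (−0.99 ± 0.17, adjusted p = 0.000356), with no overlap, while 17 of 25 genes of iron and haem were above 0, with 1 rise and 2 falls. Of 27 genes of the acute phase and innate immunity 4 fell and 2 rose, 21 were above 0 and the median was 0.17. The rises were the complement genes C1qa (0.60) and C3 (0.41), which lost the call in 2 and 7 of the 14 fits without 1 library. The interleukin 6 receptor Il6ra went from 17.3, 21.3 and 54.6 CPM to 10.51, 12.9 and 15.9 CPM (−0.97, and −0.70 without control 21). Its signalling partner Il6st fell by 0.34. Serum amyloid A1, Saa1, fell from 1.92, 9.95 and 16.4 CPM to 1.02, 2.24 and 4.04 CPM. Its near-identical copy Saa2 was at 1.15 to 9.17 CPM in controls and at 0 to 0.497 CPM in labelled knockouts. Of 40 interferon response genes 0 passed with edgeR, DESeq2 and limma-voom each called 2, and 8 had an unadjusted p under 0.05; 3 rose without knockout 9.

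The antioxidant enzyme Gpx3, a secreted glutathione peroxidase, went from 328, 426 and 526.2 CPM to 178, 203 and 277 CPM (−0.94 ± 0.17), with no overlap. Its log2 change in males was −0.05. Smox, spermine oxidase of polyamine breakdown, fell from 116, 123 and 158 CPM to 32.6, 63.1 and 110 CPM (−0.83, and −1.35 without knockouts 5, 6 and 12). The nuclear receptor Rora, a clock factor, fell from 521, 581 and 787 CPM to 354, 391 and 470 CPM (−0.59 ± 0.10), and 19 of 20 clock genes did not pass. Of 22 muscle-secreted factors, follistatin (Fst, 0.59) and the activin chain Inhba (0.66) rose and the neurotrophin Bdnf fell (−0.73) in each of the 14 fits without 1 library. Inhba lost the call without knockouts 5, 6 and 12 (adjusted p = 0.0903). Of 26 cell cycle genes 6 rose, the D cyclins Ccnd1 (0.84), Ccnd2 (0.35) and Ccnd3 (0.38) among them.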
